A study of Rattus norvegicus with 9 samples.

Results

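The authors' deposited table of long non-coding RNAs (lncRNAs) that differed between 2 groups of rat kidneys held 989 transcripts. Of these, 46 carried an Ensembl transcript identifier and 943 had been assembled from the reads. The 46 annotated transcripts, from 42 annotated genes, are described here. The table had been selected by the authors on the 6 libraries it holds, 3 from rats with contrast-induced acute kidney injury (CIAKI) and 3 from rats that had also been given icariin. A difference between those groups is therefore what brought a transcript into the table, and the values below describe it without a test. No control library is in that table.

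An lncRNA is a transcript that is longer than a small RNA and is not known to be translated. Some act in the nucleus, where they bind chromatin or the transcription machinery near their own gene, some host small nucleolar RNAs in their introns, and some act in the cytoplasm on other RNAs or proteins. Most are less abundant than mRNAs and many are made in few cell types. Where transcripts of a gene share exons, an estimate for 1 transcript depends on how shared reads are split among them. Most genes described here are known by a genomic sequence identifier, and their products have no role that could be stated with certainty.

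Each of the 3 groups had 3 rats, 1 library per rat, of 180-200 g body weight and with no strain, sex or age in the labels. Control rats had no treatment. CIAKI rats received furosemide, a loop diuretic, into the stomach at 200 mg/kg, were dehydrated for 6 h and then had the iodinated contrast agent iopromide (370 mg I/mL) injected into the tail vein at 15 mL/kg. Icariin rats went through the same steps after 3 days of icariin, a flavonoid from the herb Epimedium, at 100 mg/kg daily into the stomach. RNA came from kidney tissue with all its cell types, so fewer cells of a type and less RNA per cell cannot be told apart.

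By the whole reads recovered from the gene table, in which values are in CPM, counts scaled to library depth, the 6 libraries held 64380578 to 90398405 reads and the control libraries 69647764 to 75682092 reads. All 12 kidney marker genes checked were found, and they summed to 24744 to 25960 CPM in control, 12046 to 15468 CPM in CIAKI and 24660 to 25010 CPM in icariin libraries. The most abundant marker, Lrp2, weighs heavily in these sums (mean 10975 CPM in control and 4881 CPM in CIAKI). Not all markers were lower in CIAKI than in control. Mean Aqp2 was 199 CPM in control and 380 CPM in CIAKI, and mean Slc12a1 1483 and 2170 CPM. The other markers had lower means in CIAKI, by little for Cubn (1763 and 1604 CPM). Havcr1, which encodes the tubular injury receptor KIM-1, stood at 229 to 742 CPM in CIAKI, at 1.35 to 2.63 CPM in icariin and at 0.529 to 1.25 CPM in control libraries. The summed level of 9 lymphocyte markers was 25.8 to 28.9 CPM in control, 6.09 to 9.45 CPM in CIAKI and 14.5 to 24.3 CPM in icariin libraries. That of 5 erythroid genes was 269 to 910, 1234 to 1515 and 326 to 905 CPM. In CIAKI kidneys 8 of the 9 lymphocyte markers had a mean below 1 CPM. Cd4 made up most of the lymphocyte sum in each library, at a mean of 18.5 CPM in control, 6.94 CPM in CIAKI and 16.5 CPM with icariin. The 7 macrophage markers summed to 93.5 to 101 in control, 53 to 86.9 in CIAKI and 80 to 108 CPM in icariin libraries. Of these, Adgre1, Csf1r and C1qa had lower means in CIAKI than in control, and Mrc1, Cd163, Cd68 and C1qb higher ones. Hbb and Hba-a2 made up most of the erythroid sum in each CIAKI library. In control 2, control 3 and icariin 1 Slc4a1 was instead the most abundant erythroid gene, at 176, 140 and 213 CPM. Of the erythroid genes Slc4a1 alone had a higher mean with icariin (166 CPM) than in CIAKI (153 CPM). The 3 adrenal cortex genes found, of 6 looked for, summed to at most 2.1 CPM in any library. Icariin 2 stood apart in the mitochondrial gene Mt-co1. It had 437 CPM there, and all 8 other libraries had 22773 to 38157. The part of these differences in the transcript levels below was not tested.

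Of the 46 transcripts, 28 were higher and 18 lower in icariin than in CIAKI kidneys. In 39 transcripts the 3 libraries of a group did not overlap with the 3 of the other, 26 with icariin above and 13 with icariin below. Among 16731 genes of the gene table the groups did not overlap for 50.7% (24.9% with icariin above and 25.9% below), a share that the choice of the 46 transcripts does not allow to be set against theirs. In 10 transcripts all CIAKI libraries were at 0 and in 5 all icariin libraries. Levels are in FPKM, the reads of a transcript scaled to its length and to library depth, and log2 ratios are of group means with 0.01 FPKM added. The mean level over 6 libraries had a median of 0.0977 FPKM and reached 1 FPKM in 5 transcripts. The mean read number had a median of 11.7 and was at least 20 in 17 transcripts. The 2 transcripts of clone AC134224 were the most abundant of the 46 in the plot of levels.

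**Figure D1:**
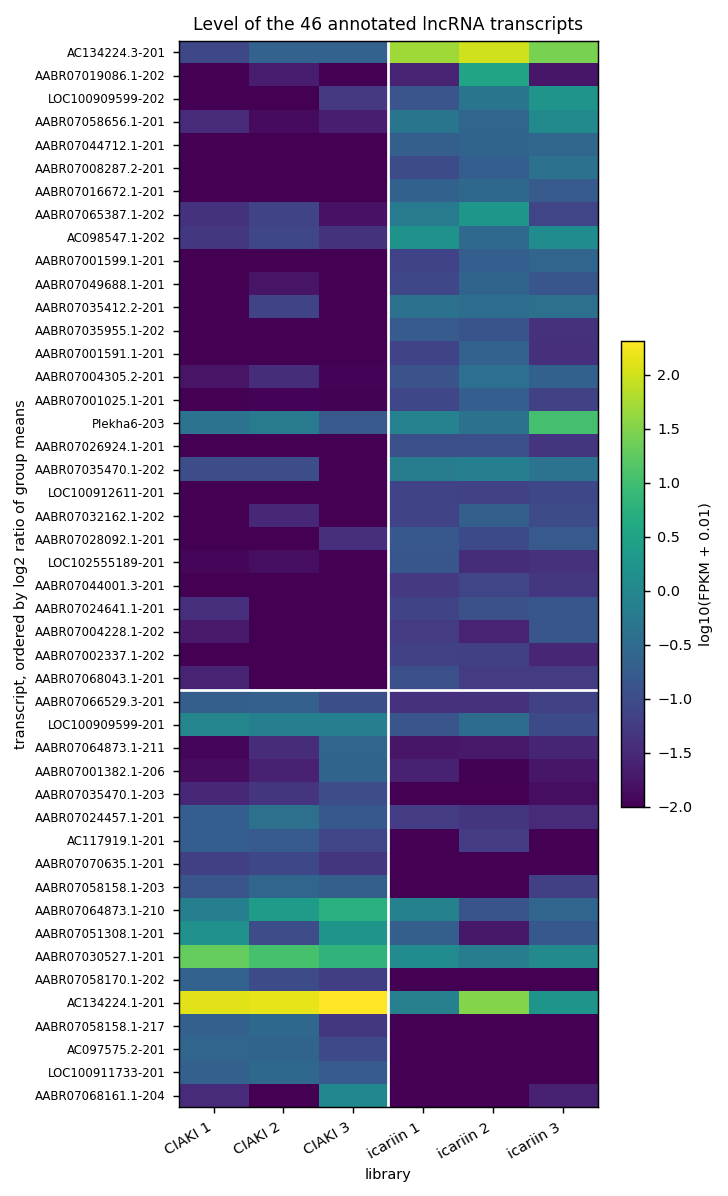
Level of each of the 46 transcripts (rows, ordered by the log2 ratio of icariin over CIAKI group means) in the 6 libraries (columns), as log10 of FPKM plus 0.01. The white lines part the groups and the 28 higher from the 18 lower transcripts, and the 2 transcripts of AC134224 are the brightest rows, on opposite sides.

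The assembled transcripts stood in the same selected table, and the labels do not state whether the same rule chose both kinds. Of the assembled transcripts, 666 of 943 (70.6%) were higher with icariin, against 60.9% of the annotated ones. A mean of at least 1 FPKM was reached by 1.91% of assembled and 10.9% of annotated transcripts. The median mean level was 0.089 FPKM for the assembled and 0.0977 FPKM for the annotated transcripts. At the median, however, the annotated transcripts had fewer reads behind a given FPKM, and by reads the order was reversed. The median of the mean read number was 16.2 for the assembled and 11.7 for the annotated transcripts. A mean of at least 20 reads was reached by 416 of 943 assembled and 17 of 46 annotated transcripts. The median size of the log2 ratio was 3.42 and 3.37. AC134224.1-201, at a mean of 86.3 FPKM, was the most abundant of all 989. The 4 members with the smallest log2 ratios were AABR07066529.3-201 (-1.79), LOC100909599-201 (-2.08), AABR07064873.1-211 (-2.22) and AABR07068043.1-201 (2.34). The smallest in the whole table was 1.30 in size, and transcripts outside the table were not analysed here.

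**Figure D2:**
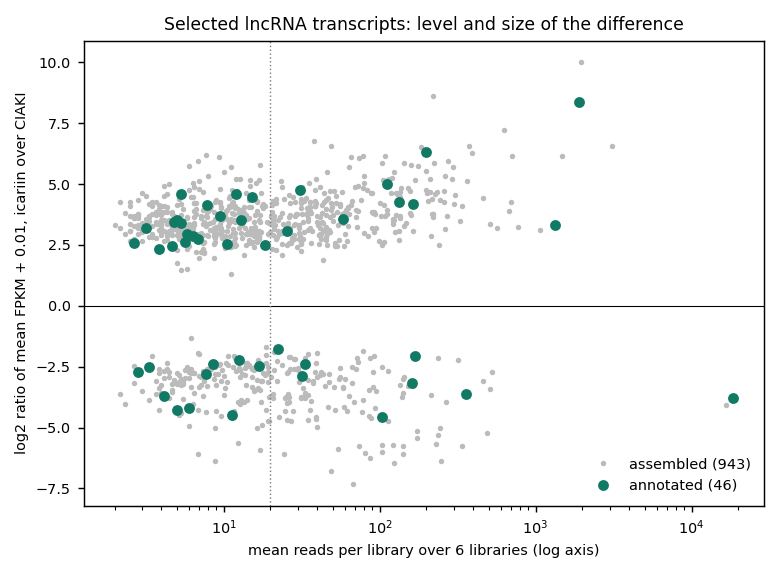
Mean reads per library (log axis) against the log2 ratio of mean FPKM, icariin over CIAKI, for 46 annotated (green) and 943 assembled (grey) transcripts. The dotted line marks a mean of 20 reads, to the right of which lie 17 annotated transcripts, and the band around 0 is empty because the table was selected.

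Among the transcripts that were higher with icariin, 9 had a mean of at least 20 reads. AC134224.3-201 (ENSRNOT00000092949) had 2831, 6429 and 2152 reads in icariin libraries 1 to 3 (48.9, 102 and 27.4 FPKM) and 6, 13 and 13 reads in CIAKI libraries 1 to 3 (0.0771, 0.215 and 0.216 FPKM). The lowest icariin library thus lay far above all CIAKI libraries, and the group means, 59.4 ± 38.3 and 0.17 ± 0.0801 FPKM (SD, n = 3 each), differed 350-fold (225-fold without icariin 2). This was the largest log2 ratio of the 46 transcripts, at 8.37. LOC100909599-202 had 29, 114 and 519 reads with icariin and 0, 0 and 10 reads in CIAKI, a ratio of mean FPKM of 54.9. The ratio was 21.2 without icariin 3, and all the CIAKI reads lay in CIAKI 3. AABR07058656.1-201 had 37, 22 and 121 reads against 3, 1 and 2 (46.2-fold, but 27-fold without icariin 3 and 72.8-fold without CIAKI 1). In both, each icariin library was above each CIAKI library, while the icariin libraries spread several-fold among themselves.

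AABR07065387.1-202 had 164, 578 and 27 reads in icariin and 13, 20 and 2 reads in CIAKI libraries (24.2-fold), and its icariin 3 library came close to the CIAKI range (0.0706 against at most 0.0669 FPKM). The ratio was 9.33 without icariin 2 and 43.7 without CIAKI 2. AC098547.1-202 had 423, 80 and 431 reads against 14, 20 and 9 (21.9-fold), again with no overlap. The most even icariin values of the 9 were those of AABR07035412.2-201, with 0.39, 0.345 and 0.388 FPKM (100, 97 and 135 reads). Its CIAKI libraries held 0, 18 and 0 reads, so that CIAKI 2 carried all of that group's signal. AABR07035470.1-202 stood at 0.673, 0.716 and 0.426 FPKM with icariin and at 0.0953, 0.0955 and 0 FPKM in CIAKI kidneys (9.51-fold).

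The other two of the 9 rested on 1 library. Plekha6-203 (ENSRNOT00000077066) is a transcript of Plekha6, the gene of a pleckstrin homology domain protein and the only gene symbol among the member names. It had 6834 reads in icariin 3 (10.8 FPKM) but 380 and 210 reads in icariin 1 and 2, beside 267, 289 and 70 reads in CIAKI libraries. The groups overlapped, icariin 3 carried 89.8% of the summed icariin level, and the log2 ratio of 3.32 was 0.63 without it. AABR07019086.1-202 had 1180 reads in icariin 2 (3.26 FPKM) against 6 and 4 reads in the other icariin libraries and 0, 4 and 0 reads in CIAKI. Its log2 ratio of 6.32 was 0.71 without icariin 2.

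**Figure D3:**
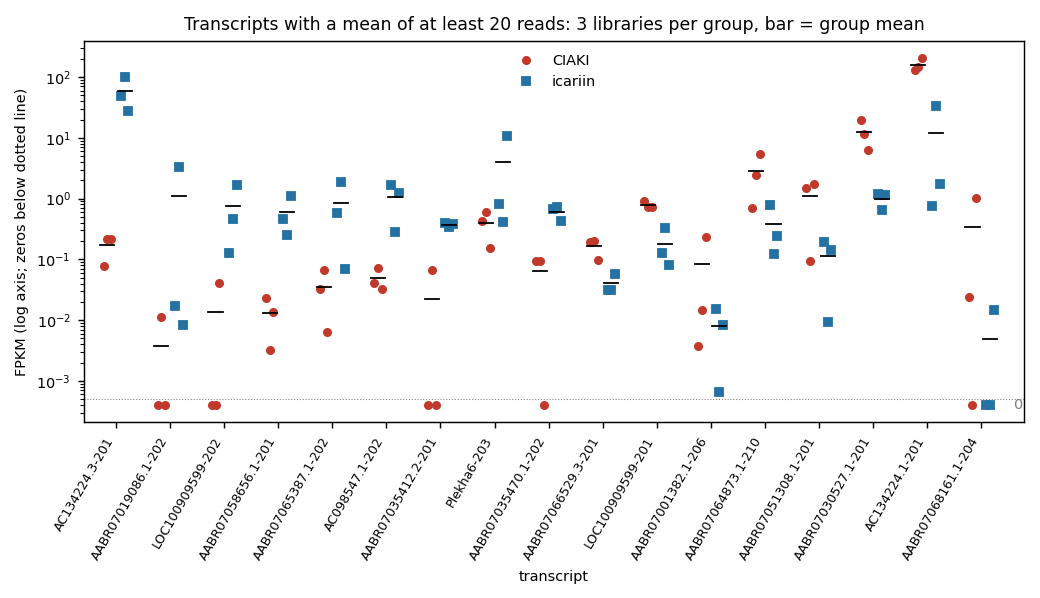
FPKM (log axis, zeros below the dotted line) of the 17 transcripts with a mean of at least 20 reads, in 3 CIAKI (red circles) and 3 icariin (blue squares) libraries, with a bar at each group mean. The groups do not overlap in 11 of the 17, and a single library lifts the mean of Plekha6-203, AABR07019086.1-202, AABR07001382.1-206 and AABR07068161.1-204.

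Among the transcripts that were lower with icariin, 8 had a mean of at least 20 reads. AC134224.1-201 (ENSRNOT00000093096) had 34597, 29420 and 39789 reads in CIAKI (133, 144 and 205 FPKM) and 147, 7017 and 458 reads in icariin libraries (0.747, 32.9 and 1.72 FPKM). The highest icariin library stayed below the lowest CIAKI library. The means were 161 ± 38.8 and 11.8 ± 18.3 FPKM (SD, n = 3 each), a 13.6-fold difference. Icariin 2 held most of the icariin reads, and the log2 ratio of -3.77 was -7.01 without it. This transcript made up most of the reads of the 46 members in CIAKI libraries, which totalled 37151, 30846 and 41816 against 4546, 16250 and 11268 in icariin libraries.

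AABR07030527.1-201 (ENSRNOT00000092342) followed in level, at 19.4, 11.5 and 6.26 FPKM in CIAKI (1167, 539 and 281 reads) and 1.2, 0.644 and 1.14 FPKM with icariin (55, 32 and 70 reads). Its means differed 12.5-fold with no overlap. LOC100909599-201 had 375, 234 and 220 reads in CIAKI and 39, 111 and 35 reads with icariin (4.4-fold, and 7.56-fold without icariin 2). AABR07066529.3-201 had 47, 40 and 19 against 6, 7 and 15 reads (4.08-fold), the smallest difference of the 46. In both, all CIAKI libraries lay above all icariin libraries.

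The groups of the remaining 4 overlapped. AABR07051308.1-201 was at 1.48, 0.0937 and 1.72 FPKM in CIAKI and at 0.193, 0.00931 and 0.142 FPKM with icariin, with the second library low in either group. Its ratio of 9.56 was 14.5 without icariin 1. AABR07064873.1-210 was at 0.708, 2.4 and 5.43 FPKM against 0.775, 0.123 and 0.241 FPKM. It had the fewest reads behind a given FPKM of all members, so these levels stand for only 18, 47 and 101 and for 15, 3 and 7 reads. Its ratio of 7.49 was 4.09 without CIAKI 3 and 15.6 without icariin 1. AABR07068161.1-204 and AABR07001382.1-206 were high in CIAKI 3 alone. They had 589 and 165 reads there, against 20 and 0 and against 4 and 11 reads in CIAKI 1 and 2. With icariin they had 0, 0 and 12 reads and 11, 1 and 8 reads. Without CIAKI 3 their log2 ratios of -4.57 and -2.39 were -0.58 and -0.095. Their ratios of 70.7 and 10.6 also moved without an icariin library, to 47.1 without icariin 1 or 2 for the first and to 19 without icariin 1 for the second.

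Another 10 transcripts had reads in each icariin library and none in any CIAKI library. A level of 0 in CIAKI allows up to 3 reads over the group, and the folds of this kind, of the mean FPKM over that floor, are lower bounds against that floor, which covers counting error only. AABR07016672.1-201, with 26, 38 and 28 icariin reads, was at least 29.7-fold higher. AABR07001591.1-201 had 15, 54 and 9 reads (at least 25.9-fold) and AABR07008287.2-201 had 8, 17 and 47 reads (at least 20.5-fold). Both rest largely on 1 library: the bounds were 11.5-fold for the first without icariin 2 and 12.2-fold for the second without icariin 3. For AABR07001599.1-201 there were 5, 16 and 26 reads (at least 13.9-fold). The other 6 had between 16 and 35 icariin reads in all, with bounds from 5.15-fold for AABR07044001.3-201 to 10.9-fold for LOC100912611-201. Between these lay AABR07044712.1-201, AABR07035955.1-202, AABR07002337.1-202 and AABR07026924.1-201. At 4 to 15 reads a library such transcripts are near the limit of detection.

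Another 9 transcripts that were higher with icariin had a mean below 20 reads and some CIAKI reads. AABR07004228.1-202 had 20, 8 and 76 reads against 6, 0 and 0, and AABR07024641.1-201 had 11, 18 and 28 against 6, 0 and 0 (18.7-fold and 10.9-fold in mean FPKM). The first ratio was 8.99 without icariin 3, and in both all CIAKI reads lay in CIAKI 1. In the other 7 the CIAKI group held 1 to 3 deposited reads. Several of these stand for less than a whole read, so ratios of read numbers and of mean FPKM differ and no order is drawn from them. The counting intervals below take the deposited reads as whole counts. Where a value of 1 stands for less than a read, as in AABR07001025.1-201, the interval does not have its 95% coverage and need not hold the ratio in mean FPKM. The 3 CIAKI values of AABR07001025.1-201 were 1 read each beside levels of 0.000365, 0.00115 and 0.000778 FPKM, against 0.0743, 0.181 and 0.06 FPKM for 6, 16 and 7 icariin reads. Its ratio was 9.18 in depth-scaled reads (95% exact counting interval 2.84 to 47.1) and 138 in mean FPKM (87.9 without icariin 2). For AABR07004305.2-201, also with 1 read in each CIAKI library, the ratios were 8.23 (2.52 to 42.5) and 19.6 (57.0 without CIAKI 2). LOC102555189-201 had 20, 5 and 7 reads against 1, 1 and 0, with ratios of 15.2 (3.87 to 131) in reads and 33 in mean FPKM (14.6 without icariin 1 and 93.1 without CIAKI 2). All 3 thus had a larger ratio in FPKM than in reads. In the remaining 4, AABR07049688.1-201, AABR07032162.1-202, AABR07028092.1-201 and AABR07068043.1-201, 1 CIAKI library held the 1 to 3 reads. Their ratios in depth-scaled reads were 53.2 (9.16 to 2137), 17.1 (4.4 to 146), 12 (3.81 to 60.9) and 9.97 (2.44 to 87.7). In mean FPKM they were 64.4, 15.9, 12.7 and 13. Leaving out an empty CIAKI library brought the first to 42.9, and leaving out icariin 2 brought the second to 10.5.

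The other 10 transcripts that were lower with icariin had a mean below 20 reads. Of these, 5 were at 0 in all icariin libraries. LOC100911733-201, with 25, 27 and 16 CIAKI reads, was at least 23.8-fold lower with icariin, and AABR07058158.1-217, with 16, 17 and 3 reads, at least 12.4-fold. AC097575.2-201 (15, 11 and 4 reads), AABR07058170.1-202 (16, 6 and 3) and AABR07070635.1-201 (7, 7 and 3) were at least 10.2-fold, 8.22-fold and 5.94-fold lower. The bound of AABR07058170.1-202 was 4.84-fold without CIAKI 1. Of the other 5, AABR07058158.1-203 had 11, 17 and 13 against 0, 0 and 5 reads and AABR07024457.1-201 had 27, 44 and 16 against 6, 5 and 4 reads. The groups did not overlap in either, and all icariin reads of the first lay in icariin 3. AABR07035470.1-203 had 2 icariin reads in all against 49 in CIAKI, a depth-scaled ratio of 25.8 (95% exact counting interval 6.77 to 219), and AC117919.1-201 had 2 against 18, a ratio of 9.48 (2.27 to 84.3). In mean FPKM the ratios were 32.4 (18.5 without CIAKI 3) and 8.83. AABR07064873.1-211 overlapped between groups, with 1, 7 and 56 reads in CIAKI and 2, 3 and 6 with icariin. Its log2 ratio of -2.22 was -0.11 without CIAKI 3.

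In all, 5 of the 46 transcripts (10.9%) had over 80% of the summed level of their higher group in 1 library, against 4.77% of assembled transcripts. They were Plekha6-203, AABR07019086.1-202, AABR07064873.1-211, AABR07001382.1-206 and AABR07068161.1-204, and in these 5 the log2 ratio fell below 1 in size when that library was left out.

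Members that share a gene may share exons and reads, and are not taken as independent of each other. AC134224.1 and AC134224.3 are 2 gene names on 1 clone, and whether they share sequence was not examined. The pair from clone AC134224, AC134224.1-201 and AC134224.3-201, went in opposite directions. The first made up 99.9%, 99.9% and 99.9% of their summed FPKM in CIAKI libraries, and 1.51%, 24.4% and 5.92% in icariin libraries. Of the summed reads, 52.2% belonged to the first in icariin 2 (95% Wilson interval 51.3% to 53% for counting error). The summed level was 133, 144 and 205 FPKM in CIAKI and 49.6, 135 and 29.1 FPKM in icariin libraries. The groups therefore did not overlap in the share, and in the sum icariin 2 lay within the CIAKI range while icariin 1 and 3 lay below it. Icariin 2 is also the library with the low Mt-co1 value, and the part of that in the values of this pair was not tested.

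The 2 transcripts of LOC100909599 were both selected and also went in opposite directions. LOC100909599-201 made up 100%, 100% and 94.5% of their summed FPKM in CIAKI and 49.8%, 41.7% and 4.63% in icariin libraries. The summed level, 0.912, 0.727 and 0.758 FPKM in CIAKI and 0.253, 0.786 and 1.77 FPKM with icariin, overlapped between groups. For AABR07035470.1 the transcript numbered 203 made up 18%, 28% and 100% of the summed FPKM of the 2 selected transcripts in CIAKI and 0%, 0% and 1.09% in icariin libraries. The CIAKI shares rest on 18, 19 and 28 reads. By reads they were 50%, 63.2% and 100% (95% Wilson intervals 29% to 71%, 41% to 80.9% and 87.9% to 100% for counting error). In icariin libraries the shares by reads were 0%, 0% and 4.88%. The summed level of these 2 transcripts was at most 0.133 FPKM in CIAKI and at least 0.431 FPKM with icariin. These shares are of the selected transcripts only, and other transcripts of the same genes were not analysed here. The remaining pairs went the same way: the 2 transcripts of AABR07058158.1 and the 2 of AABR07064873.1 were all lower with icariin.

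**Figure D4:**
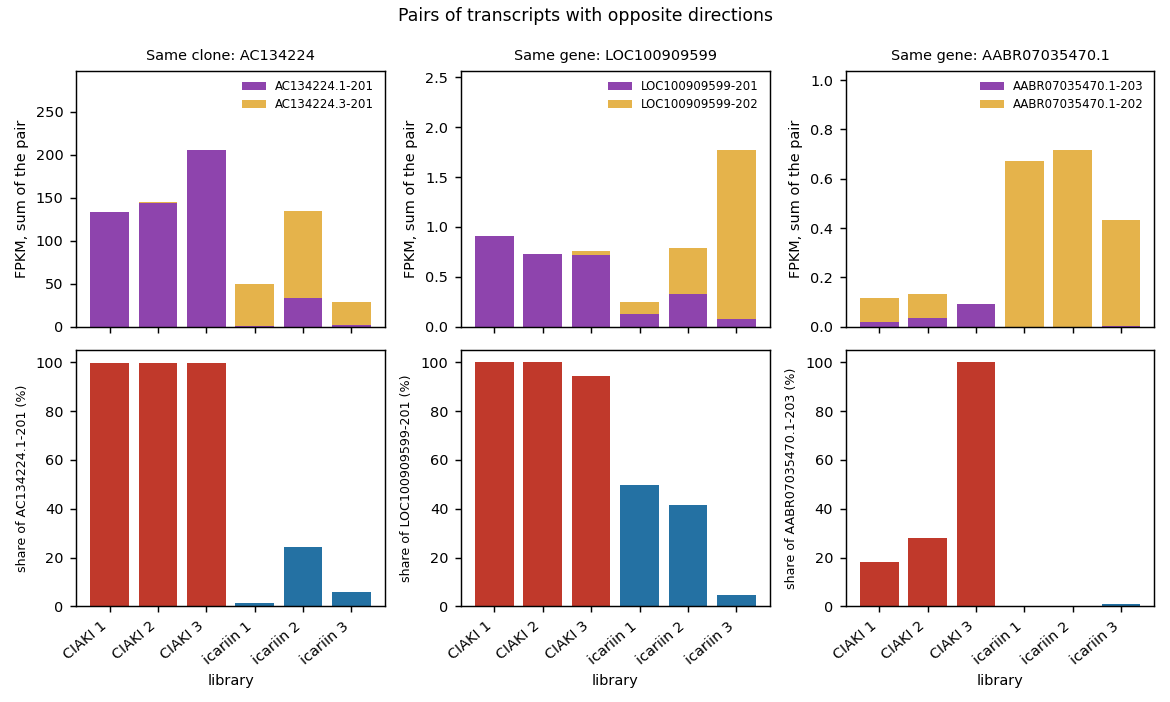
Top, summed FPKM of 3 pairs of transcripts with opposite directions, stacked by transcript, in 3 CIAKI and 3 icariin libraries. Bottom, share of the first transcript in that sum (red CIAKI, blue icariin): the shares of AC134224.1-201 are 99.9% in CIAKI and at most 24.4% in icariin libraries, while the sums of LOC100909599 overlap between groups.

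None of the 42 member genes stands in the gene table under its member name, and their level in control kidneys was not analysed here. Of the symbols that RefSeq (assembly GRCr8) gives to lncRNA genes, 9 of 10879 occurred in that table, against 71.3% of those of protein-coding genes. RefSeq names 2 of the 42 genes: Plekha6, and AABR07064873.1 as a synonym of Syne2, which encodes nesprin-2, a protein linking the nuclear envelope to the cytoskeleton. Both are protein-coding in RefSeq, so these 3 transcripts stand in the lncRNA table under protein-coding loci. The gene table was not searched for the name Syne2. Among 46 well-known lncRNA genes listed for a check (such as Malat1, Neat1, Meg3, H19 and Gas5), the gene table named Snhg11 alone. Snhg11, which hosts small nucleolar RNAs, stood at 2.17 ± 1.31 CPM in control, 3.11 ± 1.36 CPM in CIAKI and 3.43 ± 1.53 CPM in icariin kidneys (SD, n = 3 each), and passed the limma test in no comparison (adjusted p = 0.406 for CIAKI against control and 0.851 for icariin against CIAKI).

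The neighbouring protein-coding genes could be followed in all 9 libraries. From RefSeq, 2 neighbours were taken on each side of both loci, and 5 of these 8 genes had at least 1 CPM in at least 3 libraries. Esr2, Tex21 and Kiss1 did not reach that level. In limma on log2(CPM + 1) over all 16731 genes, 4 of the 5 differed between CIAKI and control at an adjusted p below 0.05, where 41.3% of all genes did. Between icariin and CIAKI 2 of the 5 differed (39.4% of all genes), and between icariin and control none did (0.628% of all genes).

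Both tested neighbours of Syne2 were lower in CIAKI kidneys. Wdr89, which encodes a WD repeat protein, stood at 15.3, 12.2 and 10.2 CPM in control, 5.56, 4.96 and 6.79 CPM in CIAKI and 13, 11 and 12.7 CPM in icariin libraries. The CIAKI libraries lay below all others, and the gene fell by 1.00 on the log2 scale against control (SE 0.17, limma adjusted p = 0.0016) and rose by 0.97 from CIAKI to icariin (SE 0.17, adjusted p = 0.0020). Sgpp1, a phosphatase of sphingosine phosphate, stood at 217, 196 and 203 CPM in control, 118, 100 and 177 CPM in CIAKI and 188, 181 and 200.3 CPM in icariin libraries. It fell by 0.68 with CIAKI (SE 0.17, limma adjusted p = 0.0125) and was higher by 0.57 with icariin (SE 0.17, adjusted p = 0.0287). The second of these calls was lost without CIAKI 1, CIAKI 2 or any 1 icariin library (adjusted p from 0.0567 to 0.0857). The members of this locus, AABR07064873.1-210 and AABR07064873.1-211, had lower means with icariin, but their groups overlapped, and without CIAKI 3 the log2 ratio of AABR07064873.1-211 was -0.11. No direction relative to the neighbours is read from them.

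**Figure D5:**
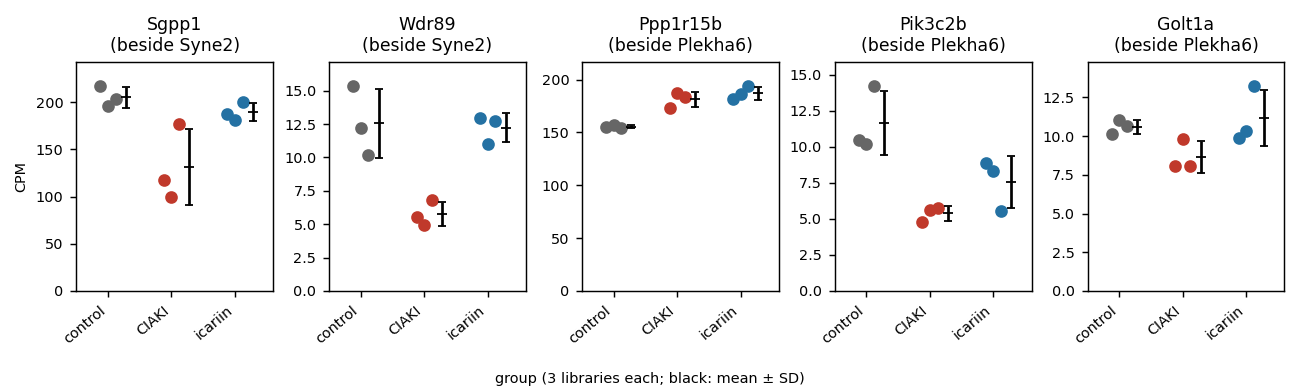
CPM of the 5 tested protein-coding neighbours of Syne2 and Plekha6 in 3 libraries of each group (dots; black, mean ± SD), with axes from 0. The CIAKI libraries of Wdr89 (4.96 to 6.79 CPM) lie below all control and icariin libraries, and Ppp1r15b is at 154 to 157 CPM in control and at 174 to 194 CPM in both other groups.

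Around Plekha6, Pik3c2b, which encodes a class of phosphoinositide kinase, fell with CIAKI from 11.6 ± 2.22 to 5.39 ± 0.517 CPM (log2 fold change -0.97, SE 0.19, limma adjusted p = 0.0036). It stood at 7.58 ± 1.81 CPM with icariin, where icariin 3, the library with the high Plekha6-203 level, was lowest at 5.52 CPM. Ppp1r15b, a regulatory subunit of a phosphatase that acts on a translation initiation factor, rose with CIAKI from 155 ± 1.47 to 181 ± 6.88 CPM (0.22, SE 0.058, limma adjusted p = 0.0137). In icariin kidneys it was at 187 ± 6.08 CPM and did not differ from CIAKI by the test (0.05, adjusted p = 0.544). Golt1a, a Golgi transport gene, stood at 10.6 ± 0.462, 8.66 ± 1.03 and 11.1 ± 1.81 CPM in control, CIAKI and icariin kidneys and passed the test in no comparison, with icariin 3 highest at 13.2 CPM (SD, n = 3 in each group). Ppp1r15b was likewise highest in icariin 3, at 194 CPM. From 1 library no relation of these neighbours to Plekha6-203 is read.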

How the data were processed

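The deposited lncRNA table holds estimated counts and FPKM values for CIAKI and icariin libraries, per the file headers. How the authors selected its transcripts was not stated in the labels. The deposited read numbers are whole. Of 99 values of 1 in transcripts with at least 20 reads in another library, 56 stood beside an FPKM worth under 0.5 reads, so fractional estimates had been rounded up. The reads behind 1 FPKM followed library depth within 0.982 to 1.02 times. The gene table was deposited in CPM by the authors, and 100% of its values were whole multiples of 1 read (within 0.1 reads). Bowtie 0.12.2 and the mouse build mm8 are named, per the submitters' processing notes, while the identifiers are rat Ensembl. The counting tool, strand setting and annotation were likewise not stated in the labels, and reads of overlapping or antisense genes may be mixed.

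The 16731 genes that reached 1 CPM in 3 or more libraries entered limma 3.58.1 with its mean-variance trend on log2(CPM + 1), all 9 libraries in 1 fit, two-sided, Benjamini-Hochberg adjusted. Fold changes on this scale understate those of low genes. edgeR 4.0.16 and DESeq2 1.42.0 were run on the recovered reads as alternatives, and edgeR called 7028, 76 and 6745 genes in CIAKI against control, icariin against control and icariin against CIAKI. The limma fit was tested on simulated data. Members were named by highest mean FPKM, smallest ratio, or largest log2 ratio without group overlap at a mean of at least 20 reads. Members whose gene name was no LOC, RGD, AABR or Ensembl identifier were also named, which took in AC clone names beside Plekha6. The remaining members are named for completeness, and picked out after their values were seen. The members and lists were chosen with earlier results of these data known. Planned tests of the members' genes in the gene table were not run, since none stands there under its member name and Syne2 was not looked up.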

Additional observations from a re-analysis of the deposited data

How the results depend on the processing

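The 46 transcripts had been selected on these 6 libraries, so that their direction is no sign of stability. With 0.01 FPKM added, 26 of their folds moved by over 1.5 times without some library. The number of transcripts whose groups do not overlap was 39 with reads scaled to depth alone in place of FPKM and 39 to 42 without 1 library, both tried after seeing the data. The count of genes called between icariin and control was 105, but 52 with no filter on low values, 524 with DESeq2 and 31 to 127 without 1 library. Of the neighbours, 1 was called between icariin and CIAKI with no filter, where Sgpp1 had an adjusted p of 0.0535, and 1 to 2 without 1 library. DESeq2 called 1 neighbour between icariin and control, Ppp1r15b (adjusted p = 0.0312, against 0.096 in limma), and without icariin 3 Pik3c2b was called between icariin and CIAKI (adjusted p = 0.029). Deviations from the group means correlated from -0.035 to 0.081 between same-numbered libraries and from -0.102 to 0.036 between other pairs of libraries. With 3 libraries a group these values do not settle whether the numbers pair the rats. With the replicate block 6678, 73 and 6314 genes were called in CIAKI against control, icariin against control and icariin against CIAKI. The cause of these shifts was not tested. Alternatives for the members' own genes in the gene table were not run. The mean read number was below 20 in 29 of the 46 members, and counting error was not set against the spread between libraries.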
